A study of Mus musculus with 16 samples.

Results

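The transcripts described here are those of 38 genes of the unfolded protein response and of endoplasmic reticulum (ER) protein folding and degradation, taken by gene symbol from a fixed list of names. All 38 were present among the 54146 genes listed for every library, and all 38 were among the 15204 genes retained for testing. They lie on 16 chromosomes and were grouped by role into 5 sensors and transcription factors, 6 genes of the Perk and Atf4 arm, 11 chaperones and co-chaperones, 6 genes of oxidative folding, 8 genes of ER-associated degradation (ERAD), and the pair Sec61b and Txnip.

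The ER is where secretory cells fold proinsulin and other exported proteins. When unfolded proteins build up, 3 sensors in its membrane act: Ern1 (the gene of Ire1) splices Xbp1 mRNA, Eif2ak3 (the gene of Perk) phosphorylates the initiation factor eIF2 alpha and so favours translation of Atf4, and Atf6 is cut in the Golgi to release a transcription factor. The targets of these arms are chaperones, disulfide-forming enzymes, parts of the ERAD machinery that returns misfolded proteins to the cytosol for destruction, and, through Atf4, genes of amino acid supply and of the pro-apoptotic factor Ddit3 (also called Chop). Beta cells make much insulin and are known to depend on this response. RNA levels do not report Xbp1 splicing, phosphorylation of eIF2 alpha or cleavage of Atf6.

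RNA was sequenced from whole pancreatic islets of the 8 founder strains of a mouse mapping population, labelled 129S1_SvImJ (129 below), A_J (AJ), C57BL/6J (B6), CAST_EiJ (CAST), NOD_ShiLtJ (NOD), NZO_HlLtJ (NZO), PWK_PhJ (PWK) and WSB_EiJ (WSB). All mice, of both sexes, were 26 weeks old and were fed a high-fat diet, so no group was fed a control diet. There were 91 libraries, with 10 from 129, 14 from AJ, 18 from B6, 14 from CAST, 10 from NOD, 4 from NZO (3 from females, 1 from a male), 5 from PWK (4 from males, 1 from a female) and 16 from WSB. The labels do not say whether each library came from a separate mouse, so the p-values measure the spread between libraries.

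Libraries held between 16928552 and 35196145 expected counts, with a median of 27485366. In 12 libraries, 6 of them from 129, 4 from WSB and 2 from NOD, the counts of Xist and of Y-linked genes were opposite to the sex in the label, and values without them are given where they move a count of members called by over 1.5 times. Libraries of 129, NOD, NZO and PWK carry deposited numbers of 66 and above and those of the other strains carry lower numbers, so the strain and whatever those numbers reflect cannot be told apart between these sets; counts within each set are given below. Summed over 12 markers of acinar cells, the digestive enzyme-making cells around the islets, the median was 6080 TPM (transcript abundance per length, scaled to the same total in each library) in AJ and 21288 in 129, and between 68758 and 109582 in the other 6 strains. Leukocyte markers summed to a median of 474 TPM in NOD and of 14 to 49 TPM elsewhere, and beta cell markers to medians of 325313 to 526901 TPM in all strains. In whole-islet RNA, fewer cells of a type and less RNA per cell cannot be told apart.

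Members differ in the response elements that their promoters carry, so the stretches around these elements are shown for the genes on which the results below turn. RefSeq promoter windows, from 250 bases before to 50 bases after the start, were found for 34 of the 38 members on GRCm38.p6. The ER stress response element (ERSE, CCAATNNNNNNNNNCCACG, read on both strands), which Atf6 and Xbp1 bind, was present in 10 of the 34 windows (29.4%) and in 37 of all 27025 windows (0.137%). A related element, ERSE-II (ATTGGNCCACG), was present in 2 members (5.88%) and in 12 windows overall (0.0444%). The Atf4 composite site (TGATGNAA) was present in 4 members (11.8%) and in 1219 windows overall (4.51%). The core of the Xbp1 element (TGACGTGG) was found in 0 member windows and in 193 overall (0.714%). No 2 of these motifs overlapped in the stretches printed, where the letters of the motif are in capitals, each stretch is read 5′ to 3′ on the gene's own strand, and a motif on the other strand appears as its reverse complement. The first 7 hold an ERSE, the next an ERSE-II, and the last 2 an Atf4 composite site.
Hspa5, chr2:34772013-34772055, plus strand: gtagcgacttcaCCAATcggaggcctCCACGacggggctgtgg
Hsp90b1, chr10:86705626-86705668, minus strand: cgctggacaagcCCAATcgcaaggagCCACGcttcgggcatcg
Canx, chr11:50325788-50325830, minus strand: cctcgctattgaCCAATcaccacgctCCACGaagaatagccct
Creld2, chr15:88819508-88819550, plus strand: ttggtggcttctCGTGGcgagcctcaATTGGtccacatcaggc
Pdia6, chr12:17266479-17266521, plus strand: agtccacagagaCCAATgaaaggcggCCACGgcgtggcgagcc
Ero1lb, chr13:12565670-12565712, plus strand: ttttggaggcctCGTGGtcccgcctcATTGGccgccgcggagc
Derl3, chr10:75893230-75893272, plus strand: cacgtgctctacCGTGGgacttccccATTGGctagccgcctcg
Herpud1, chr8:94386365-94386399, plus strand: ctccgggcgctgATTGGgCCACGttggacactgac
Asns, chr6:7693213-7693244, minus strand: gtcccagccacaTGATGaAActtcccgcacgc
Chac1, chr2:119351037-119351068, plus strand: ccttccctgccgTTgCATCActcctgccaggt

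The other members with an ERSE were Calr, Dnajc3 and Syvn1, and Hsp90b1 held a pair of them. Counted from the start, the ERSE of Hspa5 began at position -65 and that of Ero1lb at -201. The Atf4 composite site of Asns began at -23 and that of Chac1 at -193, while the other members with such a site were Herpud1 and Trib3. A match describes these letters only and says nothing of binding in islets. The 12 members with an ERSE or ERSE-II had a median strain range of 0.48 on the log2 scale and a median mean level of 198 TPM, against 0.69 and 73.5 TPM in the 22 members with a window and without either.

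On the TPM scale, which allows levels of different genes to be compared, the members were abundant transcripts of the islet. The 38 summed to 6608 TPM on average over libraries. Hspa5, the Hsp70 chaperone BiP, had the highest mean, 756 TPM, above 99.6% of the retained genes, and Ero1lb, the oxidase that is abundant in beta cells and returns protein disulfide isomerases to their oxidized form, followed at 557 TPM. Next came the isomerase P4hb (494 TPM), the Hsp90 chaperone Hsp90b1 (471 TPM), Txnip, an inhibitor of thioredoxin (433 TPM), and the lectin chaperone Calr (403 TPM). The sensors were much lower, at 31.5 TPM for Ern1, 23.5 TPM for Atf6 and 20.3 TPM for Eif2ak3, and Trib3, a pseudokinase of the Atf4 program, had the lowest mean at 7.53 TPM. The members' summed level had its highest median in PWK (7946 TPM) and AJ (7840 TPM, range 7402 to 8199) and its lowest in WSB (5895 TPM), and B6 libraries spanned 3513 to 8192 TPM.

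The first question was whether the members differ between the strains. Of 38, 36 differed between strains at an adjusted p under 0.05 (edgeR quasi-likelihood F test with sex as a covariate, Benjamini-Hochberg adjustment over all retained genes), where 97.4% of all retained genes did, so the share among members was close to the background. The exceptions were P4hb (adjusted p = 0.28) and Herpud1, an ERAD adaptor (adjusted p = 0.0594). The strain effect was modest in size: the median difference between the highest and the lowest strain was 0.56 on the log2 scale among the members and 0.87 among all retained genes. The largest ratio of the highest to the lowest strain mean was 3.43 for Ddit3, followed by 2.72 for Chac1, 2.44 for Edem1, 2.41 for Trib3 and 2.37 for Derl3, and the smallest was 1.17 for Hsp90b1. No member had all libraries of 1 strain above or below those of the other 7, and the share of all retained genes that did was not computed.

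Each strain was then set against the equally weighted mean of the other 7. Since these 8 contrasts share libraries, their values are given side by side. In AJ 16 members were higher and 7 lower, where 24.9% and 32.1% of all retained genes were. In 129 the counts were 4 higher and 13 lower (27.9% and 21% of all genes). B6 had 11 higher and 11 lower (25.6% and 27.6%), WSB 7 and 8 (26.6% and 29.7%), NOD 5 and 9 (35.8% and 29.5%), CAST 5 and 6 (26.7% and 31%), PWK 4 and 4 (23.2% and 21.8%) and NZO 6 and 1 (20% and 14.2%). The share of members called higher in AJ (42.1%) and lower in 129 (34.2%) stood above the background of that direction, whereas in the other strains the shares were below it in both directions, apart from B6, where they were slightly above (28.9% each). The members' median difference ranged from -0.16 in 129 to 0.11 in NZO and was 0.09 in AJ, with medians of all genes between -0.04 and 0.03. In AJ, where acinar markers were lowest, 14 of the 23 calls were kept with an acinar covariate, and the counts became 22 higher and 1 lower (21.9% and 27.1% of all genes). In NOD, where leukocyte markers were highest, 2 of the 14 calls were kept with a leukocyte covariate, and the counts became 4 higher and 0 lower (6.98% and 7.05% of all genes; 7 and 1 members at an unadjusted p under 0.05).

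**Figure D1:**
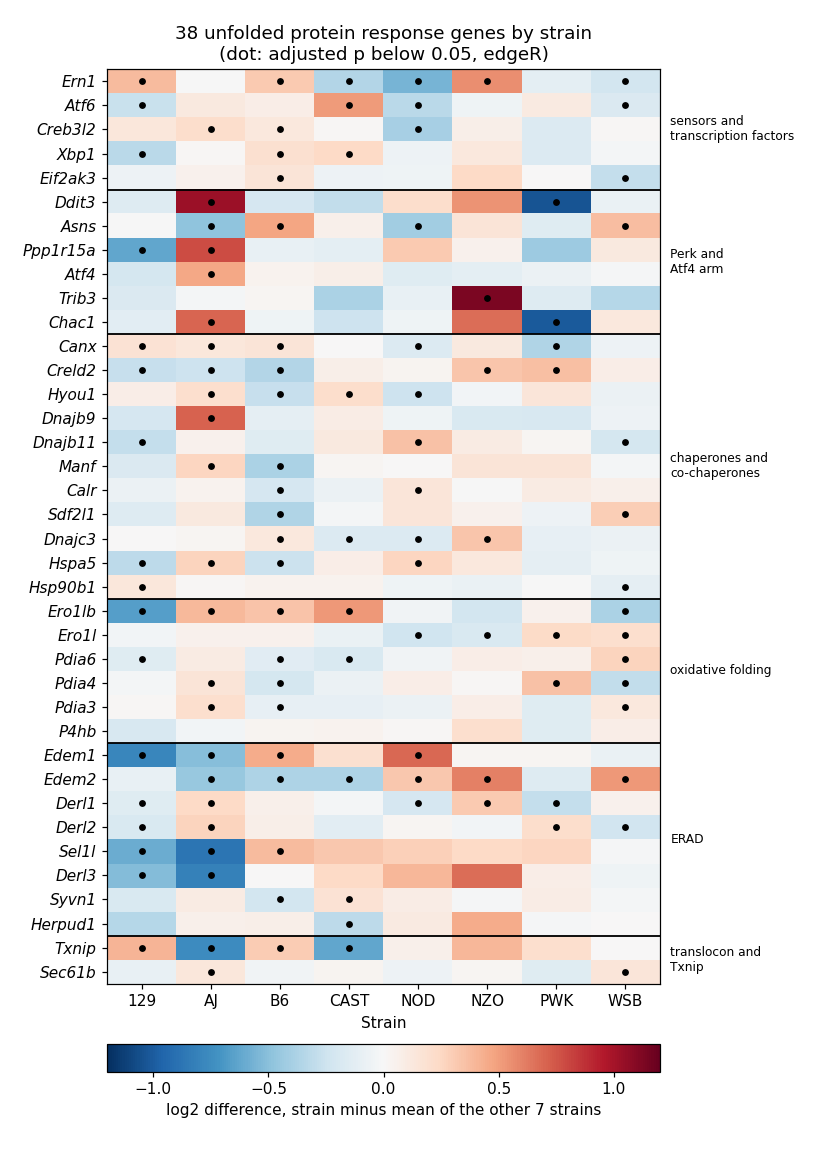
Heat map of the difference of each strain from the mean of the other 7 strains (columns, log2 scale) for the 38 members (rows, grouped by role), with the calls at an adjusted p under 0.05 marked. The deepest colours are those of Trib3 in NZO (1.13), of Ddit3 in AJ (1.02) and PWK (-1.03) and of Chac1 in PWK (-1.01), and 129 shows 13 members lower.

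The balance of directions depended on the scale. With limma on log2(TPM + 1), the median of all genes itself lay at 0.18 in 129, 0.10 in PWK, 0.06 in AJ, -0.11 in B6, -0.12 in WSB and -0.18 in CAST, and the members split into 8 higher and 4 lower in 129 (42.5% and 8.55% of all genes), 24 and 6 in AJ (27.2% and 15.3%), 3 and 16 in B6 (7.53% and 35.2%), 1 and 20 in CAST (6.96% and 48.7%), 2 and 14 in WSB (8.98% and 36.4%), 4 and 2 in PWK (20.6% and 9.06%), 4 and 8 in NOD (25.4% and 23.7%) and 6 and 0 in NZO (10.6% and 5.28%). Relative to that shift, the median member lay 0.17 higher in AJ, 0.14 higher in NZO and 0.11 lower in 129, and within 0.05 in the other strains.

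Within the sets of libraries with like numbers, strain differed for 35 members among AJ, B6, CAST and WSB, where 86.6% of all genes did, and for 18 among 129, NOD, NZO and PWK, where 81.6% did. Within its own set AJ had 15 members higher and 6 lower (27% and 27.7% of all genes), B6 8 and 14 (27.5% and 25.9%), CAST 10 and 11 (32% and 29%) and WSB 9 and 10 (30.1% and 27.7%). In the other set 129 had 3 and 7 (26.5% and 24.2%), NOD 2 and 8 (32.6% and 27.3%), NZO 6 and 0 (17.3% and 15.4%) and PWK 3 and 5 (19.8% and 22.3%). Without the 12 libraries of opposite sex-linked counts, which removes 6 of the 10 from 129, the members called in 129 fell from 17 to 5, with 3 higher and 2 lower (12.7% and 8.29% of all genes; 5 and 4 members at an unadjusted p under 0.05), so the excess of lower members in 129 was not seen there. Of the 17, Ern1, Edem1 and Ero1lb were still called in 129 and the other 14 missed the threshold. The counts of the other strains stayed within 1.5 times, from 7 in NZO to 22 in AJ.

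In all, 117 calls of a member in a strain were made. Of these, 81 were kept with the same sign on log2(TPM + 1), 92 within the strain's own set, 92 without the libraries of opposite sex-linked counts, 94 with the acinar and 86 with the leukocyte covariate and 93 without the libraries over 100000 acinar TPM. Under all of these, the other normalizations and filters, DESeq2 and a fit without sex, 39 were kept. In AJ these were Ddit3, Ppp1r15a, Dnajb9, Atf4, Ero1lb, Derl2, Manf, Derl1, Creb3l2 and Txnip. In B6 they were Asns, Ern1, Manf, Edem2, Sdf2l1, Creld2, Hyou1, Syvn1 and Calr, and in WSB Edem2, Ero1lb, Pdia4, Eif2ak3, Derl2, Dnajb11 and Atf6. In CAST they were Atf6, Ern1, Txnip and Pdia6, in 129 Edem1, Ero1lb and Ern1, in NZO Trib3, Edem2 and Ern1, in PWK Ddit3 and Ero1l and in NOD Edem1. Every other strain call given below was lost or changed sign under at least 1 of these alternatives. They did not include the 1.5-fold requirement, the fits without 1 library of NZO or PWK, or the counts summed over each sample. On those sums only 5 members were called in B6 (25.6% of all genes) and 5 in WSB (30.4%), so some of those listed were lost there.

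Among the sensors and transcription factors all 5 differed between strains, as 97.4% of all genes did, and the strains with high levels were not the same for each gene. Ern1 had the smallest p of the members (adjusted p = 6.59e-18). For Ern1 the lowest, median and highest normalized counts were 5040, 5943 and 7693 in 129, 4706, 5892 and 7364 in B6, 4053, 4976 and 5391 in AJ, 3245, 3942 and 6353 in WSB, 3224, 3843 and 4983 in CAST and 2369, 3444 and 4327 in NOD. In NZO the libraries held 6535, 8088, 7781 and 5234 and the PWK libraries 4347, 4204, 4572, 4460 and 4664. Its level was high in NZO, 129 and B6 and low in NOD, where all 10 libraries lay below the median of the other strains, and ranges of neighbouring strains overlapped. The difference from the other strains was 0.56 in NZO (SE 0.10, adjusted p = 4.88e-06), 0.38 in 129 (SE 0.07), 0.32 in B6 (SE 0.06), -0.22 in WSB, -0.35 in CAST and -0.56 in NOD (SE 0.07, adjusted p = 2.3e-10). With a leukocyte marker covariate the NOD value was -0.13 (adjusted p = 0.512).

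Atf6 had another order of strains. For Atf6 the lowest, median and highest normalized counts were 4334, 5391 and 6699 in CAST, 3654, 4137 and 4784 in AJ, 3319, 4192 and 4968 in B6, 2602, 3558 and 4371 in WSB, 2883, 3335 and 3847 in 129 and 2495, 3006 and 4499 in NOD. Libraries of NZO held 3878, 4206, 4062 and 3038 and the PWK libraries 3982, 4272, 4274, 4543 and 3824. All 14 CAST libraries lay above the median of the other strains, and the difference was 0.51 (SE 0.05, adjusted p = 9.28e-15). Atf6 was lower in NOD (-0.32, SE 0.06), 129 (-0.27, SE 0.06) and WSB (-0.18, SE 0.05). With the leukocyte covariate the value in NOD was -0.08. The value in 129 was -0.04 on log2(TPM + 1) (limma, adjusted p = 0.713), and neither within its own set (-0.16) nor without the libraries of opposite sex-linked counts (-0.19) was it called.

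Xbp1, the transcription factor made active by Ire1 splicing, moved over a smaller range. For Xbp1 the lowest, median and highest normalized counts were 8615, 9205 and 11823 in CAST, 6516, 9219 and 13290 in B6, 7226, 8207 and 8919 in AJ, 6604, 7747 and 10268 in WSB, 4745, 7268 and 11397 in NOD and 5302, 6673 and 8091 in 129. The 4 NZO libraries held 7377, 10347, 9790 and 7829 and the PWK libraries 6224, 6484, 7650, 10055 and 6952. It was highest in CAST (0.24, SE 0.07, adjusted p = 0.00183) and B6 (0.19, SE 0.06) and lowest in 129 (-0.32, SE 0.08, adjusted p = 0.000612), where all 10 libraries lay below the median of the other strains. Xbp1 correlated with the acinar score within strains (r = 0.722). With the acinar covariate the value was 0.09 in CAST (adjusted p = 0.127), 0.12 in B6, -0.18 in 129 (adjusted p = 0.00673) and 0.41 in AJ, where it had been 0.01. With the leukocyte covariate neither CAST nor B6 was called. Within their own sets the values of B6 (0.10) and 129 (-0.25) were no longer called, nor was 129 without the libraries of opposite sex-linked counts (-0.18). Eif2ak3 spanned 0.46 between NZO and WSB and was called higher in B6 (0.16) and lower in WSB (-0.28). Creb3l2, an ER-anchored factor of the same kind as Atf6, was higher in AJ (0.22) and B6 (0.13) and lower in NOD (-0.40). In B6, where 25.6% of all genes were higher and 27.6% lower, 4 of the 5 genes of this group were higher and 0 lower. On the TPM scale 1 of 5 was higher (7.53% of all genes), and with the leukocyte covariate 1 (21.8%).

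The Perk and Atf4 arm held the strain differences of largest size: all 6 genes differed, the background share being 97.4%, with a median range of 1.27. AJ had the highest mean of Ddit3, Chac1, Atf4 and Ppp1r15a, and Asns had its lowest mean there. Ddit3, at chr10:127290774-127296288 (mm10, plus strand), was the most variable. For Ddit3 the lowest, median and highest normalized counts were 1676, 2830 and 3783 in AJ, 841, 1471 and 1847 in WSB, 523, 1417 and 3644 in NOD, 629.9, 1331 and 1902 in CAST, 605, 1252 and 2593 in B6 and 754, 1208 and 2592 in 129. The libraries of NZO held 1665, 2299, 2431 and 1675 and the PWK libraries 479, 614, 1105, 898 and 933. All 14 AJ libraries and none of the 5 PWK libraries lay above the median of the other strains, and the AJ range overlapped those of 129, B6, CAST, NOD, NZO and WSB but not PWK. Ddit3 was 1.02 higher in AJ (SE 0.15, adjusted p = 1.65e-08) and 1.03 lower in PWK (-1.03, SE 0.28, adjusted p = 0.00155). Its gene overlaps Mars on the other strand, and strand use in the counting is not stated, so reads of the overlap cannot be told apart. The same holds for Derl2 (with Mis12), Manf (Dcaf1), Pdia3 (Catsper2), Pdia6 (Atp6v1c2), Ppp1r15a (Tulp2) and Syvn1 (Mrpl49). Manf also overlaps Rbm15b, and Ddit3 another annotated entry of the same name, on the same strand, which strand use could not resolve.

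The upstream factor Atf4 followed with a smaller amplitude. For Atf4 the lowest, median and highest normalized counts were 8858, 11639 and 16283 in AJ, 7586, 9146 and 12736 in CAST, 7013, 9044 and 12169 in WSB, 5800, 8697 and 15766 in B6, 4999, 8240 and 13154 in NOD and 6387, 7997 and 10019 in 129. The NZO libraries held 8513, 8551, 8759 and 7770 and the PWK libraries 7239, 8684, 9815, 10082 and 9378. All 14 AJ libraries lay above the median of the other strains (0.46, SE 0.09, adjusted p = 4.87e-06), and within the set of 129, NOD, NZO and PWK Atf4 missed the threshold (adjusted p = 0.896). Ppp1r15a, which directs the removal of the phosphate that Perk puts on eIF2 alpha, was 0.78 higher in AJ (SE 0.17, adjusted p = 4.94e-05, 12 of 14 libraries above the median) and 0.62 lower in 129 (-0.62, SE 0.21).

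Chac1, an enzyme that breaks down glutathione, varied widely within strains. For Chac1 the lowest, median and highest normalized counts were 880.1, 2187 and 4173 in AJ, 647, 1355 and 2467 in 129, 744, 1351 and 3242 in WSB, 404, 1179 and 2347 in CAST, 506, 1178 and 3195 in B6 and 401, 1167 and 3758 in NOD. In NZO the libraries held 1368, 2668, 2396 and 2109 and the PWK libraries 406, 573, 877, 1378 and 934. Ranges overlapped between all strains, and Chac1 was 0.70 higher in AJ (SE 0.20, adjusted p = 0.00257) and 1.01 lower in PWK (-1.01, SE 0.37, adjusted p = 0.0214), while in the set of 129, NOD, NZO and PWK it missed the threshold (adjusted p = 0.0842). Trib3 was low in most strains, with a median of 295 in 129 and of 219.6 in CAST, and the NZO libraries held 297, 962, 845 and 587, so 3 of 4 lay above the median of the other strains. The NZO difference was 1.13 (SE 0.26, adjusted p = 0.000273).

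Asns, which makes asparagine, moved apart from Ddit3. For Asns the lowest, median and highest normalized counts were 3659, 4558 and 7407 in B6, 3204, 4599 and 5570 in WSB, 2690, 3435 and 4710 in 129, 2456, 3154 and 5904 in CAST, 2149, 2637 and 3163 in AJ and 1120, 2375 and 5105 in NOD. Libraries of NZO held 3311, 4104, 4033 and 3900 and the PWK libraries 2932, 2231, 3294, 5151 and 2700. All 18 B6 libraries lay above and all 14 AJ libraries below the median of the other strains, at 0.48 (SE 0.10, adjusted p = 2.15e-05) and -0.49 (SE 0.11). Asns correlated with the acinar score within strains at r = 0.739 over 91 libraries, which share preparation and cell makeup, and with an acinar covariate the AJ value turned to 0.18.

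Stress markers of islet isolation (Fos, Fosb, Jun, Junb, Egr1, Hspa1a and Hspa1b) had median sums of 3200 TPM in B6 to 5059 TPM in AJ. Within strains they correlated with Ppp1r15a at r = 0.486 and with Ddit3 at 0.482, and their part in the strain differences was not tested.

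**Figure D2:**
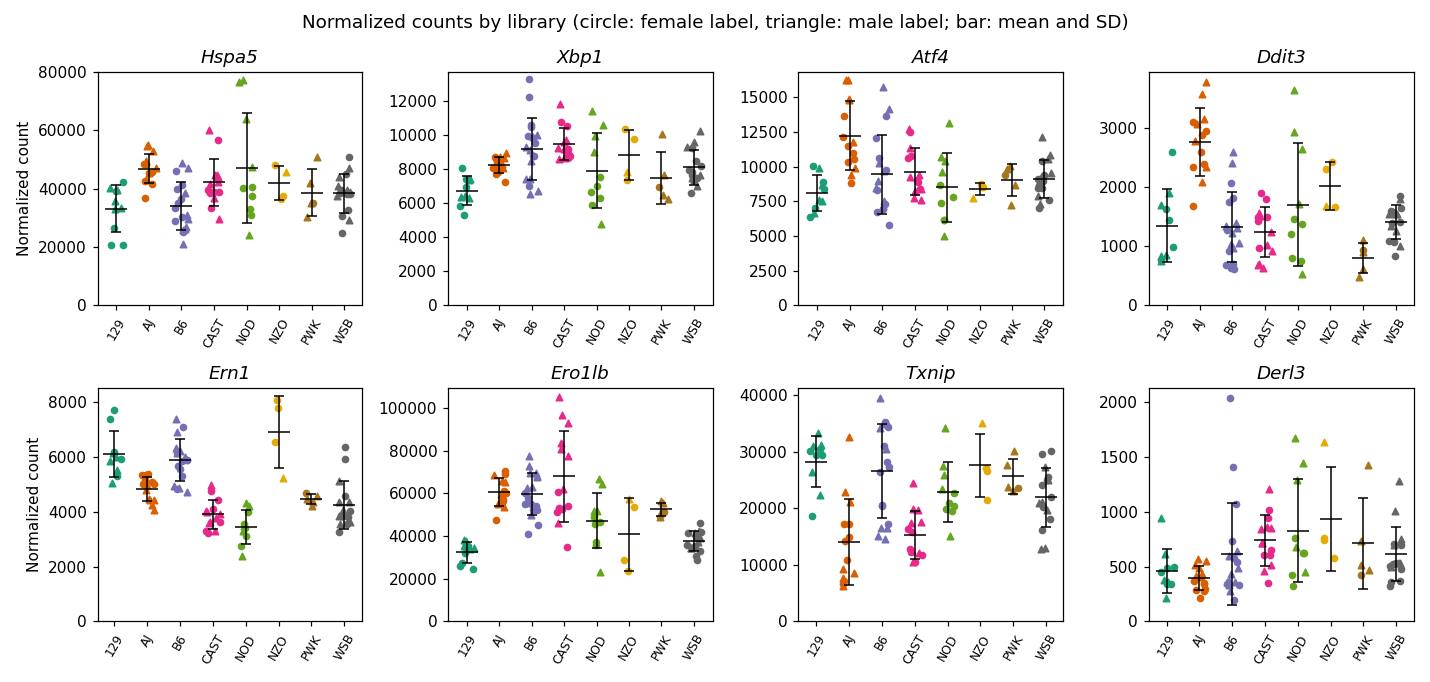
Normalized counts per library in the 8 strains for Hspa5, Xbp1, Atf4, Ddit3, Ern1, Ero1lb, Txnip and Derl3, with circles for the female and triangles for the male label and bars for the mean and SD of each strain. AJ has the highest mean of Ddit3 (2764) and PWK the lowest (806), and no strain is wholly separate from the others.

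Of the 11 chaperones and co-chaperones all differed between strains, as 97.4% of all genes did, over a median range of 0.50. Their largest strain effect was in Dnajb9, a J-domain co-chaperone of BiP: its level was 0.71 higher in AJ (SE 0.11, adjusted p = 1.15e-07). For Dnajb9 the lowest, median and highest normalized counts were 8007, 10255 and 13839 in AJ, 3813, 7686 and 9767 in CAST, 3541, 6494 and 9330 in NOD, 3734, 6460 and 9376 in WSB, 3226, 6365 and 8100 in 129 and 3229, 6208 and 10793 in B6. The 4 NZO libraries held 6023, 5637, 5387 and 6969 and the PWK libraries 5395, 6200, 7223, 6043 and 6430. All 14 AJ libraries lay above the median of the other strains. Canx, the membrane-bound lectin chaperone, had the smallest p of the group and was 0.36 lower in PWK (-0.36, SE 0.06, adjusted p = 1.27e-06). For Canx the lowest, median and highest normalized counts were 11625, 12610 and 14054 in 129, 11233, 12433 and 13686 in AJ, 10482, 12373 and 14578 in B6, 8931, 11193 and 14157 in CAST, 8974, 10778 and 12956 in WSB and 8028, 10550 and 11601 in NOD. The libraries of NZO held 12559, 12149, 11826 and 12139 and the PWK libraries 9367, 8983, 9690, 8695 and 9744. The PWK libraries covered a narrow range near the lower end of all libraries, which overlapped those of CAST, NOD and WSB.

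Hspa5, at chr2:34771970-34777547 (mm10, plus strand), had a ratio of the highest to the lowest strain mean of 1.42. For Hspa5 the lowest, median and highest normalized counts were 36902, 46258 and 54898 in AJ, 29463, 40503 and 60250 in CAST, 24193, 40212 and 77203 in NOD, 24884, 38735 and 50816 in WSB, 20513, 34499 and 42425 in 129 and 20983, 32151 and 48776 in B6. The NZO libraries held 48124, 36502, 37419 and 45824 and the PWK libraries 30147, 34924, 50891, 41967 and 35052. AJ was higher by 0.26 (SE 0.09, adjusted p = 0.0132), NOD by 0.26 (SE 0.11, adjusted p = 0.0307), while 129 was lower by 0.31 (-0.31, SE 0.11, adjusted p = 0.0179) and B6 by 0.26 (-0.26, SE 0.09). The 129 value was -0.03 on log2(TPM + 1) (limma, adjusted p = 0.83) and -0.03 without the libraries of opposite sex-linked counts, and it was not called with the acinar covariate (-0.25) or within its own set (-0.35). Without the libraries over 100000 acinar TPM the NOD value was -0.18, and with a leukocyte covariate it was 0.67 (adjusted p = 0.00364).

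In B6, where 27.6% of all genes were lower and 25.6% higher, 6 of the 11 chaperones were lower and 2 higher. The lower ones were Manf, a secreted ER-stress responsive factor (-0.38), Sdf2l1 (-0.36), Creld2 (-0.35), Hyou1 (-0.27), Hspa5 (-0.26) and Calr (-0.20), and the higher ones were Canx and Dnajc3. On the TPM scale 8 were lower and 0 higher (35.2% and 7.53% of all genes), with a median of -0.34 where the median of all genes was itself -0.11. In AJ 5 of 11 were higher and 1 lower (24.9% and 32.1% of all genes) and in 129 2 and 3 (27.9% and 21%), the latter near the background. On the TPM scale 129 had 4 higher and 0 lower, where 42.5% and 8.55% of all genes were.

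Creld2, an ER-resident protein that is secreted under stress, was highest in PWK. For Creld2 the lowest, median and highest normalized counts were 1154, 1940 and 2764 in CAST, 1320, 1826 and 2286 in WSB, 1367, 1714 and 2855 in NOD, 1184, 1529 and 1764 in AJ, 1246, 1465 and 1988 in 129 and 1141, 1418 and 1806 in B6. In NZO the libraries held 1862, 1316, 1618 and 3810 and the PWK libraries 2212, 2540, 2189, 2562 and 2062. The difference was 0.36 in PWK (SE 0.12, adjusted p = 0.00723) and 0.34 in NZO (SE 0.13), where 1 library of 4, from the male, was far above the others. Without that library the NZO value was -0.02.

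Ero1lb had the largest strain effect of the oxidative folding genes. For Ero1lb the lowest, median and highest normalized counts were 34966, 61387 and 105248 in CAST, 47740, 60016 and 70624 in AJ, 41017, 58869 and 77452 in B6, 23256, 47604 and 66522 in NOD, 28600, 38207 and 46224 in WSB and 24409, 34198 and 38138 in 129. Libraries of NZO held 53471, 28777, 23563 and 57315 and the PWK libraries 49000, 55330, 56289, 50542 and 51392. 129 was lower by 0.66 (-0.66, SE 0.10, adjusted p = 6.36e-08) and WSB by 0.38 (-0.38, SE 0.08), with all 10 and all 16 libraries below the median of the other strains. CAST was 0.52 higher (SE 0.08, adjusted p = 4.52e-08), AJ 0.39 higher (SE 0.08) and B6 0.34 higher (SE 0.07). Within their own sets the B6 value was 0.14 and no longer called, the AJ value 0.20, the CAST value 0.36, the WSB value -0.70 and the 129 value -0.51.

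Ero1l, the oxidase found in most tissues, had a narrow spread. For Ero1l the lowest, median and highest normalized counts were 1650, 1894 and 2281 in WSB, 1542, 1803 and 1968 in AJ, 1547, 1763 and 2138 in B6, 1430, 1665 and 1897 in 129, 1348, 1659 and 1866 in CAST and 1266, 1490 and 1628 in NOD. The 4 NZO libraries held 1689, 1560, 1481 and 1425 and the PWK libraries 1761, 1899, 2080, 1820 and 2176. It was higher in PWK (0.22, SE 0.06) and WSB (0.20, SE 0.04) and lower in NOD (-0.24, SE 0.05) and NZO (-0.18, SE 0.07). On log2(TPM + 1) its value was 0.03 in WSB (limma, adjusted p = 0.785) and -0.17 in NZO (adjusted p = 0.599). Pdia4, a disulfide isomerase, had its highest levels in PWK. For Pdia4 the lowest, median and highest normalized counts were 3562, 4524 and 5120 in AJ, 2784, 4288 and 4683 in 129, 3534, 4127 and 5397 in NOD, 2518, 3570 and 5484 in CAST, 2574, 3351 and 4520 in WSB and 2925, 3334 and 4288 in B6. The libraries of NZO held 4052, 3434, 3823 and 4624 and the PWK libraries 5179, 5240, 5054, 4471 and 4973. It was 0.35 higher in PWK (SE 0.10) and 0.29 lower in WSB (-0.29, SE 0.07). Pdia6 was 0.26 higher in WSB (SE 0.05) and 0.18 lower in CAST (-0.18, SE 0.06), and its WSB value on log2(TPM + 1) was 0.12 (limma, adjusted p = 0.244). Of the 6 genes of this group WSB had 3 higher and 2 lower (26.6% and 29.7% of all genes) and AJ 3 higher and 0 lower (24.9% and 32.1%).

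Several ERAD genes were higher in libraries with higher acinar markers, and others of the group were not. Within strains, over 91 libraries that share preparation and cell makeup, r with the acinar score was 0.882 for Sel1l, the adaptor of the Hrd1 ligase, 0.778 for Edem1, which hands misfolded glycoproteins to degradation, 0.728 for Derl3, a channel component, 0.679 for Edem2, 0.533 for Herpud1, 0.411 for Syvn1, 0.0967 for Derl1 and -0.163 for Derl2. Members outside this group had values in the same range, with 0.739 for Asns, 0.722 for Xbp1 and 0.67 for P4hb. For Sel1l the lowest, median and highest normalized counts were 4344, 6010 and 22159 in B6, 3812, 6705 and 16469 in CAST, 3252, 5669 and 16896 in NOD, 3312, 5924 and 10748 in WSB, 3770, 4362 and 5528 in 129 and 3319, 3836 and 4263 in AJ. The PWK libraries held 5787, 4464, 6333, 15734 and 5174 and the NZO libraries 5291, 8658, 8258 and 7926. In AJ and 129, where acinar markers were lowest, Sel1l was lower by 0.88 (-0.88, SE 0.19, adjusted p = 5.45e-05) and 0.60 (-0.60, SE 0.21, adjusted p = 0.0162). With an acinar covariate the AJ value was 0.46 (adjusted p = 0.000296) and the 129 value -0.09 (adjusted p = 0.46).

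**Figure D3:**
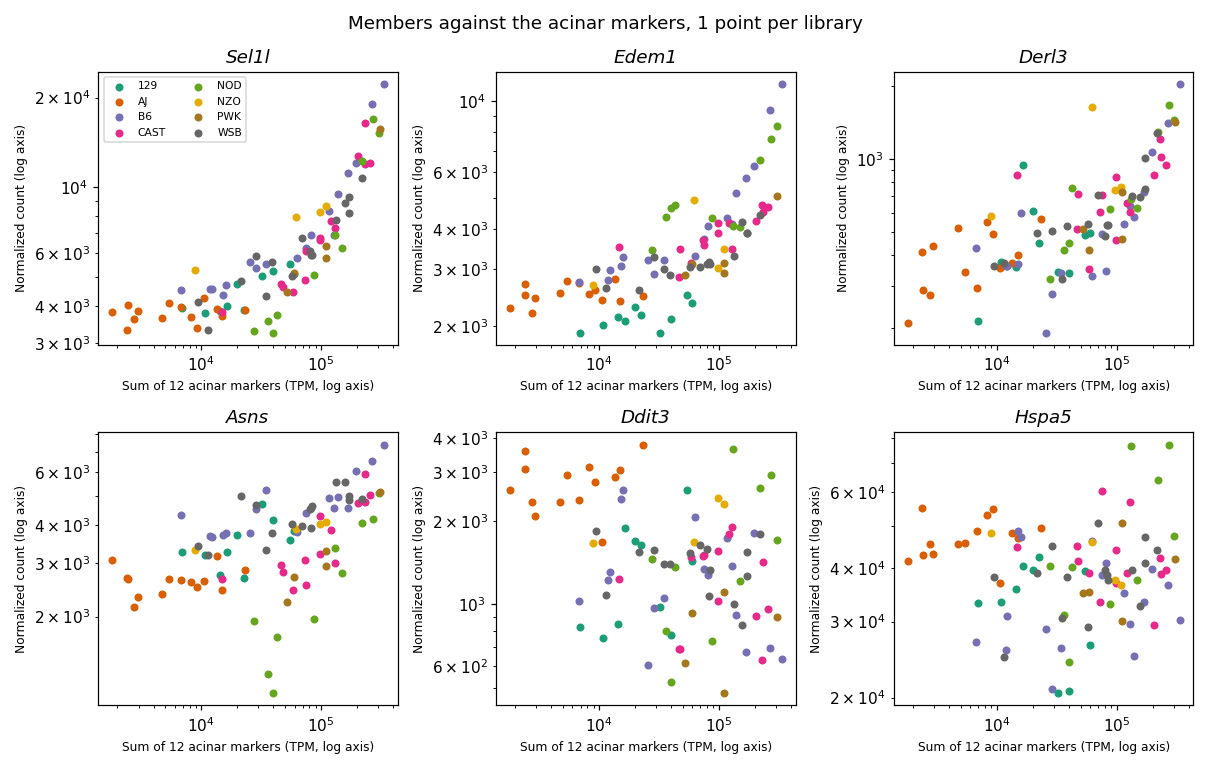
Normalized counts (log axis) of Sel1l, Edem1, Derl3, Asns, Ddit3 and Hspa5 against the summed TPM of 12 acinar markers (log axis), 1 point per library, coloured by strain. Sel1l is higher where the markers are higher (within-strain r = 0.882), while Ddit3 shows little relation (r = 0.0777).

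Edem1 had the smallest p of the ERAD genes (adjusted p = 3.32e-12). For Edem1 the lowest, median and highest normalized counts were 3430, 4492 and 8342 in NOD, 2832, 3785 and 4731 in CAST, 2744, 3509 and 11255 in B6, 2579, 3109 and 4427 in WSB, 2198, 2499 and 2795 in AJ and 1905, 2116 and 2499 in 129. The NZO libraries held 2672, 3460, 3017 and 4932 and the PWK libraries 2914, 2866, 3138, 5072 and 3120. All 10 NOD libraries lay above and all 10 of 129 below the median of the other strains, at 0.69 (SE 0.12, adjusted p = 2.87e-07) and -0.78 (SE 0.13, adjusted p = 8.05e-07). Edem1 in 129 was -0.53 with the acinar covariate and still called, in AJ it turned from -0.51 to 0.17.

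Derl3, at chr10:75893413-75895941 (mm10, plus strand), had a mean of 25.3 TPM, close to that of Derl2 (23.5 TPM) and the lowest of the ERAD genes apart from it. For Derl3 the lowest, median and highest normalized counts were 192, 459 and 2033 in B6, 319.8, 654 and 1670 in NOD, 349.7, 713 and 1204 in CAST, 320.2, 534 and 1277 in WSB, 214, 412 and 939.9 in 129 and 209, 386 and 565 in AJ. In NZO the libraries held 583, 764, 745 and 1637 and the PWK libraries 467, 515, 732, 1424 and 421. AJ was 0.81 lower (-0.81, SE 0.20, adjusted p = 0.000401), and with the acinar covariate the value turned to 0.34 higher (adjusted p = 0.0656), while without the libraries over 100000 acinar TPM it remained lower (-0.48).

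Edem2, a mannosidase, had its lowest mean in AJ and its highest in NZO. For Edem2 the lowest, median and highest normalized counts were 3745, 5020 and 6985 in WSB, 2945, 4495 and 6787 in NOD, 2694, 3745 and 4325 in 129, 2197, 3050 and 3981 in CAST, 2403, 2902 and 3184 in AJ and 1833, 2659 and 6899 in B6. Libraries of NZO held 5065, 4561, 5060 and 7297 and the PWK libraries 3026, 2997, 3274, 5671 and 2520. It was higher in NZO (0.60, SE 0.16), WSB (0.52, SE 0.09) and NOD (0.32) and lower in AJ (-0.45), CAST and B6 (-0.37 each). All 16 WSB and all 4 NZO libraries lay above the median of the other strains, and ranges of NOD and WSB overlapped. In AJ, where 24.9% of all genes were higher and 32.1% lower, 2 of 8 ERAD genes were higher (Derl1 and Derl2, 0.24 and 0.26, both channel components) and 4 lower (Sel1l, Edem1, Derl3 and Edem2), and in 129 0 were higher and 5 lower (27.9% and 21% of all genes). With the acinar covariate all 4 lower values in AJ turned positive, that of Edem2 to 0.10, and the counts became 5 higher and 0 lower in AJ (21.9% and 27.1% of all genes) and 0 and 3 in 129 (27.1% and 19.2%). Syvn1, the Hrd1 ligase, had a range of 0.34 and differed at adjusted p = 0.00629.

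Txnip, which rises with glucose in beta cells, was lower in AJ (-0.75, SE 0.14, adjusted p = 4.05e-06) and CAST (-0.62, SE 0.14, adjusted p = 8.3e-05) and higher in 129 (0.41, SE 0.15) and B6 (0.31, SE 0.12). For Txnip the lowest, median and highest normalized counts were 18582, 29790 and 33373 in 129, 14666, 27827 and 39610 in B6, 15136, 21804 and 34182 in NOD, 12794, 21629 and 30182 in WSB, 10483, 14320 and 24529 in CAST and 6262, 12516 and 32652 in AJ. The 4 NZO libraries held 27144, 21465, 26684 and 35095 and the PWK libraries 23127, 27608, 23833, 30087 and 23565. With the acinar covariate the AJ value was -0.74. On log2(TPM + 1) the B6 value was 0.16 (limma, adjusted p = 0.305), and within its own set the 129 value was 0.17 and not called. Txnip missed the threshold in the set of 129, NOD, NZO and PWK (adjusted p = 0.0723).

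Sec61b, a subunit of the translocon, was among the least variable members. For Sec61b the lowest, median and highest normalized counts were 2125, 2462 and 2573 in AJ, 2102, 2439 and 2739 in WSB, 1864, 2255 and 2834 in CAST, 1791, 2217 and 2731 in B6, 1619, 2153 and 2528 in 129 and 1651, 2150 and 2540 in NOD. The libraries of NZO held 2334, 1871, 1976 and 2874 and the PWK libraries 2229, 2059, 1903, 2428 and 1688. It was higher in AJ (0.13, SE 0.05) and WSB (0.14, SE 0.05), and the libraries of all strains overlapped. On log2(TPM + 1) the WSB value was 0.02 (limma, adjusted p = 0.859), and within their own set neither AJ (0.08) nor WSB (0.08) was called.

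The members were also counted by the pathway that is known to drive them, and differences between these groups of targets were not tested. Of 8 Perk targets AJ had 4 higher and 2 lower, and PWK 1 and 2. Of 9 Ire1 targets, 129 had 0 higher and 6 lower and AJ 4 higher and 2 lower. Of 10 Atf6 targets, B6 had 1 higher and 7 lower, AJ 4 and 2 and 129 1 and 3. Of all retained genes 24.9% were higher and 32.1% lower in AJ, 27.9% and 21% in 129, 25.6% and 27.6% in B6 and 23.2% and 21.8% in PWK, so several of these counts, such as 2 of 9 lower in AJ, were near or below the background. With the acinar covariate 3 of 9 Ire1 targets were lower in 129 (19.2% of all genes). On the TPM scale 1 was higher and 1 lower there (42.5% and 8.55%). With the acinar or the leukocyte covariate, and on the TPM scale, B6 had 0 Atf6 targets higher and 7 lower. Of all genes 28.9%, 21.4% and 35.2% were lower in B6 in these 3 fits, and 25.3%, 21.8% and 7.53% higher.

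Wild-derived strains (CAST, PWK and WSB) were compared with the other 5. 4 members were higher and 8 lower, where 24.9% and 31.3% of all genes were. Higher were Creld2 (0.24, SE 0.06), Atf6 (0.21, SE 0.04), Ero1l (0.16, SE 0.03) and Hyou1 (0.13, SE 0.06). Lower were Ddit3 (-0.66, SE 0.14, adjusted p = 2.89e-05), Chac1 (-0.53, SE 0.18), Trib3 (-0.41, SE 0.14), Ern1 (-0.32, SE 0.05), Canx (-0.19), Eif2ak3 (-0.16), Dnajc3 (-0.15) and Derl1 (-0.12). Not every strain followed the class: Atf6 was 0.51 higher in CAST and 0.18 lower (-0.18) in WSB. On the TPM scale 0 were higher and 11 lower (10% and 32.8% of all genes), and within the sets of libraries with like numbers the class differed for 18 members among AJ, B6, CAST and WSB, where 56.7% of all genes did. In the other set PWK is the only wild-derived strain, so the class cannot be told apart from PWK there.

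Between the sexes, taken from the labels, 4 members were higher in males and 0 lower, where 2.06% and 1.95% of all genes were. They were Ero1lb (0.28, SE 0.06, adjusted p = 0.00161), Sdf2l1, a component of the chaperone complex (0.27, SE 0.07, adjusted p = 0.00539), Creld2 (0.21, SE 0.05, adjusted p = 0.01) and Hsp90b1 (0.13, SE 0.03, adjusted p = 0.0101), and the male mean was higher in 8 of 8 strains for each. At an unadjusted p under 0.05, 14 members were higher in males and 0 lower by edgeR. DESeq2 also called 4 (4.59% of all genes), and limma on the TPM scale called 0 (0.704% of all genes, 5 members unadjusted). Without the libraries over 100000 acinar TPM, Sdf2l1 and Creld2 kept their calls and Ero1lb (0.17) and Hsp90b1 (0.08) did not, with 5 members higher and 2 lower at an unadjusted p under 0.05. On counts summed over the libraries of each sample 0 members were called by edgeR (11 unadjusted), as was no gene at all. In CAST the means of Ero1lb were 51141 ± 8615 (SD, n = 6) in females and 80638 ± 19240 (SD, n = 8) in males, the largest difference between sexes among the strains with more than 1 library of each, and in AJ they were 60257 ± 7876 and 60990 ± 5717 (SD, n = 7 each). Without the 12 libraries of opposite sex-linked counts 7 members were called, where 9.79% of all genes were.

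Sdf2l1 and Hsp90b1 overlapped between strains throughout. For Sdf2l1 the lowest, median and highest normalized counts were 1340, 1999 and 2740 in WSB, 1577, 1860 and 2296 in AJ, 1516, 1814 and 2840 in NOD, 995, 1725 and 3011 in CAST, 1049, 1479 and 2457 in 129 and 951, 1350 and 1902 in B6. The NZO libraries held 1763, 1095, 1336 and 2881 and the PWK libraries 1692, 1911, 1694, 2244 and 1455. Its strain differences were -0.36 in B6 (SE 0.09) and 0.30 in WSB (SE 0.09). For Hsp90b1 the lowest, median and highest normalized counts were 27229, 32633 and 36937 in 129, 22924, 30610 and 34676 in B6, 20804, 30032 and 38251 in CAST, 27583, 29483 and 32742 in AJ, 22833, 27891 and 31296 in WSB and 21425, 27216 and 34007 in NOD. In NZO the libraries held 29476, 25662, 23012 and 31323 and the PWK libraries 28975, 29075, 35037, 27567 and 29975. Hsp90b1 was 0.14 higher in 129 (SE 0.05) and 0.11 lower in WSB (-0.11, SE 0.05). Within the sets of libraries with like numbers strain missed the threshold for Hsp90b1 in both (adjusted p = 0.0577 and 0.21), and the 129 value (0.16) was not called. Between the sexes 1 member, Ero1lb, was called within the set of AJ, B6, CAST and WSB, where 5.73% of all genes were. Within the set of 129, NOD, NZO and PWK 0 members were called, as was no gene at all (edgeR, 20 members higher in males at an unadjusted p under 0.05).

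The sex difference itself was compared between strains over 82 libraries of the 6 strains with at least 5 of each sex. It differed for 7 members, where 5.9% of all genes did: Edem1 (adjusted p = 0.000272), Sel1l (0.000447), Edem2 (0.00963), Derl3 (0.0123), Asns (0.0147), Herpud1 (0.0426) and Xbp1 (0.0457). In B6 the means of Sel1l were 11167 ± 5835 (SD) in 9 females and 5189 ± 895 in 9 males, and in NOD they were 4386 ± 1254 in 5 females and 10902 ± 5715 in 5 males. For Edem1 the means were 5868 ± 2768 in B6 females and 3199 ± 461 in B6 males, and 4186 ± 492 in NOD females and 6240 ± 1846 in NOD males (same n). Derl3, Asns, Edem2, Herpud1 and Xbp1 showed the same directions. For Herpud1 the lowest, median and highest normalized counts were 7344, 11644 and 13675 in AJ, 6073, 11075 and 16070 in B6, 7041, 10317 and 14476 in WSB, 5157, 9433 and 18981 in NOD, 5119, 8434 and 12494 in CAST and 4637, 8277 and 13028 in 129. Libraries of NZO held 11196, 13936, 15714 and 14631 and the PWK libraries 5829, 6785, 12715, 19440 and 8764. Herpud1 ranges overlapped between all strains. Acinar markers moved the same way, with medians of 139575 TPM in B6 females, 15954 in B6 males, 42647 in NOD females and 219365 in NOD males. With the acinar covariate 0 of the 7 were called (edgeR quasi-likelihood test, 10 members at an unadjusted p under 0.05, no other tool run with this covariate), with adjusted p of 0.124 to 0.756. The share of all genes called fell as well, from 5.9% to 0.414%. Without libraries over 100000 acinar TPM 3 members were called, none of the 7, where 5.54% of all genes were. Without the 12 libraries of opposite sex-linked counts 14 members were called, where 17.6% of all genes were.

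**Figure D4:**
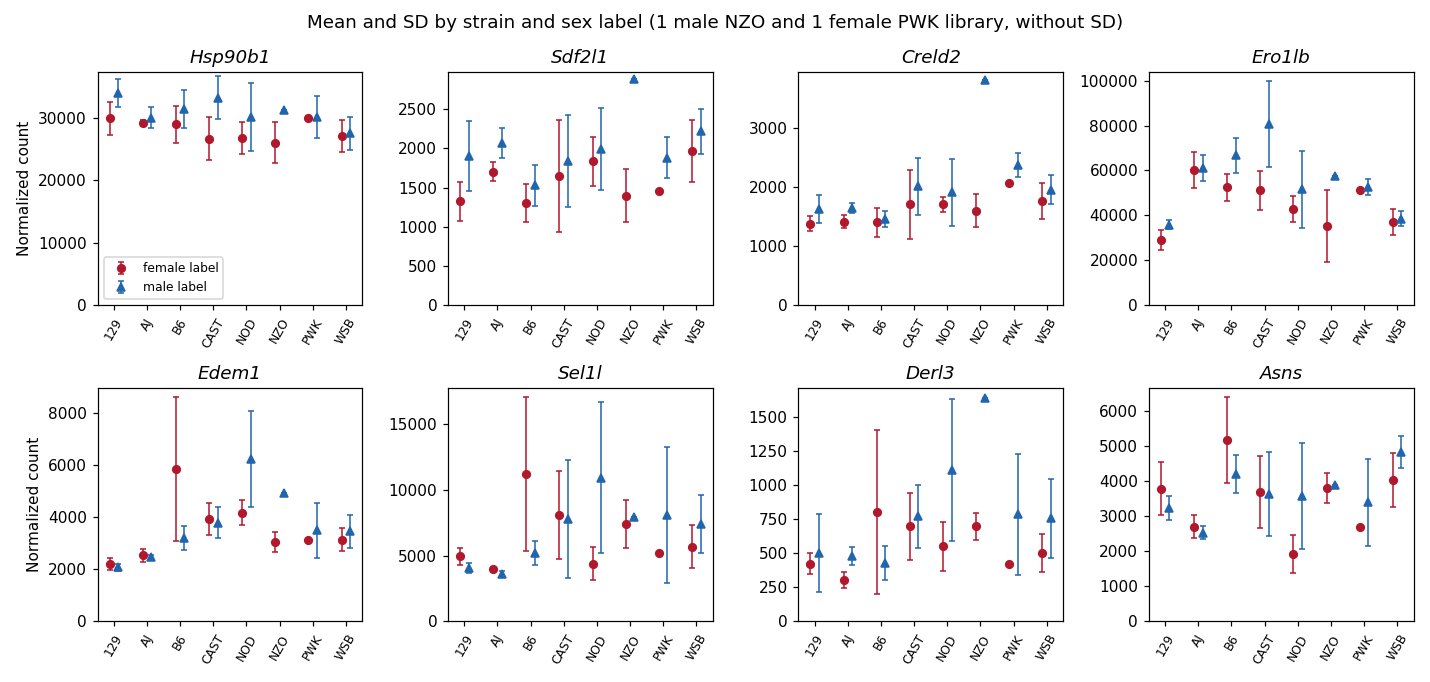
Mean and SD of normalized counts by strain and sex label for the 4 members called between the sexes (top row) and for Edem1, Sel1l, Derl3 and Asns, called for the interaction of strain and sex (bottom row). Sel1l is higher in B6 females than males (11167 against 5189) and lower in NOD females than males (4386 against 10902).

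The members varied together within strains. After removal of strain means, the median Pearson r over all 703 pairs of members was 0.342, where the median over all pairs of retained genes was 0.00525. It was 0.588 among the chaperones, 0.534 in ERAD, 0.53 in the Perk and Atf4 arm, 0.474 in oxidative folding and 0.438 among sensors and factors. The closest pairs were Sdf2l1 and Creld2 (0.894), Ddit3 and Ppp1r15a (0.876), Hyou1 and Manf (0.871), Atf4 and Ddit3 (0.87), and the lowest was Atf4 and Txnip (-0.453). These are descriptions over 91 libraries that share depth, preparation and cell makeup. In ERAD the value was 0.219 on log2(TPM + 1).

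**Figure D5:**
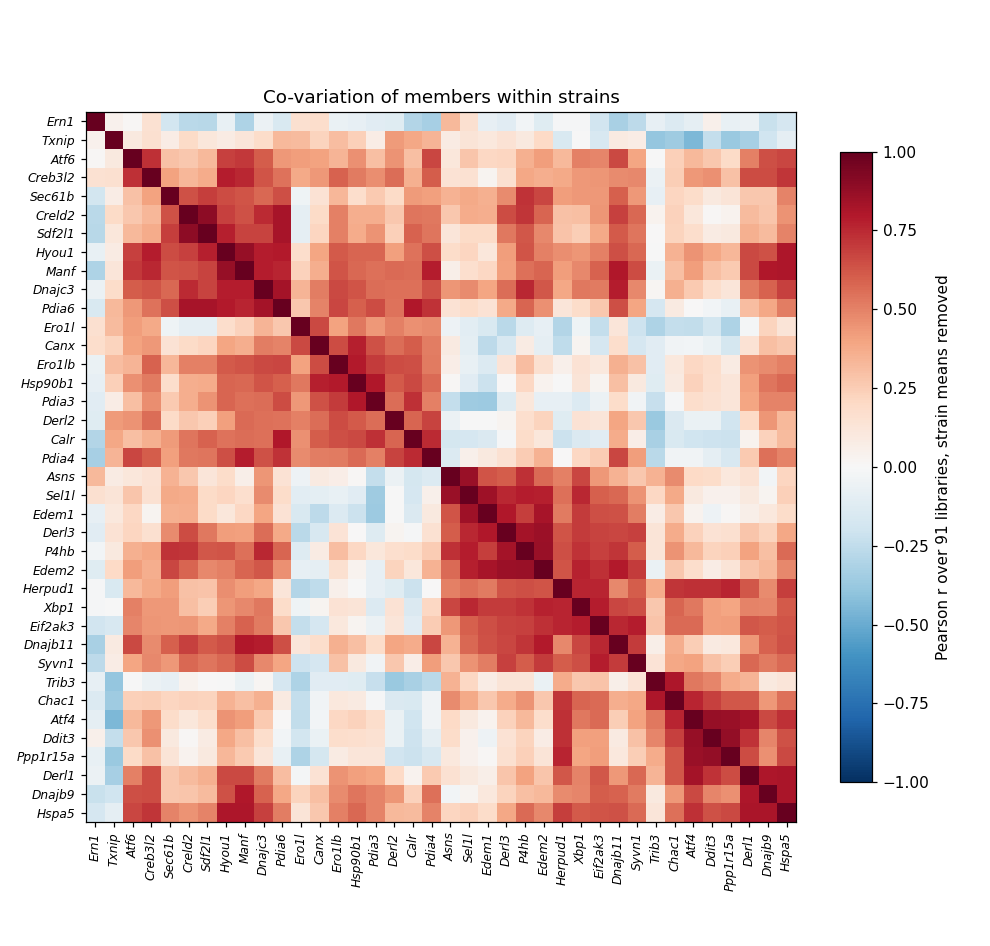
Pearson correlation of the 38 members within strains over 91 libraries, ordered so that members with like profiles are adjacent. Creld2 lies beside Sdf2l1, Canx and Hsp90b1 lie near Ero1lb and Pdia3, 6 of the 8 ERAD genes lie with Asns and Xbp1, and Ddit3 lies with Atf4 and Ppp1r15a. Derl2 is placed among the chaperones and isomerases and Derl1 beside Ppp1r15a and Dnajb9, while Ern1 and Txnip are at the edge.

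Of other genes in the same pathways, taken from lists made with earlier results of these data known, most differed between strains as most genes did. The counts were 12 of 13 in translocation and signal peptide cleavage (Spcs3, Spcs1 and Sec62 by smallest p), 7 of 7 in N-glycosylation (Ddost, Stt3b and Dad1), 13 of 13 in other ER folding (Dnajc10, Sil1 and Hspa13), 13 of 14 in other ERAD (Vcp with the smallest p), 20 of 20 in the other Atf4 program (Slc7a11, Aldh18a1 and Gdf15) and 17 of 17 tested of 18 regulators (Rtcb, Eif2ak1 and Mbtps1). In AJ, where 24.9% of all genes were higher and 32.1% lower, 11 of 14 other ERAD genes were higher and 0 lower, and of the 20 genes of the other Atf4 program 5 were higher, as many as the background share gives, and 11 lower. Vcp, the ATPase that pulls ERAD substrates from the membrane, had a range of 1.05 between AJ and NOD (adjusted p = 8.8e-41), and Slc7a11, the cystine transporter, one of 3.57 between AJ and WSB (adjusted p = 1.27e-32). Gdf15, a stress-induced secreted factor, spanned 2.86 between NOD and 129.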

How the data were processed

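Whole-islet RNA libraries were quantified by the authors with RSEM on mm10 (GENCODE vM18 annotation); the RSEM version and read filters are not given in the sources used here. The deposited expected counts and TPM values per gene were used, with 1 file per library, 91 in all. Genes were retained by filters like those the study describes, applied here with a later annotation and to the counts before normalization, so the set is not the study's own: protein-coding, on chromosomes 1 to 19 or X, non-zero in at least 85% of libraries and outside the lowest 10% of variance, which left 15204 genes holding 94.9% of the counts. Symbols and biotypes came from a GENCODE M21 annotation that matched 54079 of 54146 listed genes.

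After rounding of the expected counts, edgeR 4.0.16 (upper-quartile normalization, quasi-likelihood F test, R 4.3.3) was fitted to the 91 libraries together with terms for strain and sex, with Benjamini-Hochberg adjustment over all retained genes and a threshold of 0.05. Normalized counts are counts scaled by the same factors. The script was tested on simulated data. Alternatives were run with DESeq2 1.42.0 and, on log2(TPM + 1), limma 3.58.1, and with other normalizations, filters, covariates and libraries; leaving out each library was done for NZO and PWK, which have 4 and 5. Libraries held 16928552 to 35196145 expected counts, so 3 counts correspond to 0.0852 to 0.177 CPM. The lowest expected count of any member in a library was 86.

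Full values are given for Hspa5, Xbp1, Ddit3, Atf4, Txnip, Ero1lb and Derl3, for the 2 members of each role group with the smallest p and the 2 with the largest ratio of strain means, and for members called for sex or interaction. For members outside these, values were chosen after they were seen. The members, role groups and lists were chosen with earlier results of these data known. Retention signals of the proteins were not analysed here. One gene of the other ERAD list is counted but not reported by name here. Libraries were prepared in 4 waves of animals, and the wave of each library is not given in the labels.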

Additional observations from a re-analysis of the deposited data

Results flagged for a closer look

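Of 152 groups of 4 to 10 libraries examined (38 members in 4 strains), 6 held a library apart from the rest, and chance flags about 1 in 20 groups. The gap of the outermost library, as a share of the group's range, was 0.503 for Eif2ak3 in 129 (1539 normalized counts, next 1841), 0.791 for Eif2ak3 in PWK (3006, next 1938), 0.722 for Sel1l in PWK (15730, next 6333), 0.842 for Edem1 in PWK (5072, next 3138), 0.546 for Creld2 in NOD (2855, next 1910) and 0.472 for Pdia4 in NOD (5397, next 4420). The 3 PWK values were of the same library, which had 307818 acinar TPM, the highest of its strain.

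The sex difference varied between strains, by the interaction test of edgeR over 82 libraries, for Edem1 (adjusted p = 0.000272), Sel1l (0.000447), Edem2 (0.00963), Derl3 (0.0123), Asns (0.0147), Herpud1 (0.0426) and Xbp1 (0.0457). In B6 the means of all 7 were higher in females and in NOD higher in males. With acinar markers as a covariate 0 of the 7 were called, where 0.414% of all genes were.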

How the results depend on the processing

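TMM and median-ratio normalization, DESeq2, both other filters and a fit without sex moved no count of members called by over 1.5 times. The acinar limit of 100000 TPM was chosen after seeing the data, and the causes of the shifts below were not tested. With a 1.5-fold change also required, 16 members differed by strain, and 129 had 4, AJ 7, B6 0, CAST 1, NOD 1, NZO 2, PWK 2, WSB 0, wild-derived strains 1 and sexes 0. Counts summed over the libraries of each of the 16 samples left 129 with 7 (29.9% of all genes), AJ with 10 (30.6%) and B6 with 5 (25.6%). They left CAST with 6 (35.7%), NZO with 13 (41.7%), WSB with 5 (30.4%) and the sexes with 0 (0%, 11 members unadjusted). Without libraries of opposite sex-linked counts, 129 had 5 (21% of all genes), sexes 7 (9.79%) and the interaction 14 (17.6%). Within sets of like library numbers, strain had 18 among 129, NOD, NZO and PWK (81.6% of all genes) and 129 had 10 (50.7%). In the other set CAST had 21 (60.9%) and sexes 1 (5.73%, AJ, B6, CAST and WSB). With an acinar covariate PWK had 13 (47.1% of all genes), wild-derived strains 19 (52.9%), sexes 8 (4.82%) and the interaction 0 (0.414%, 10 members unadjusted). With a leukocyte covariate NOD had 4 (14% of all genes). Below 100000 acinar TPM NZO had 13 (36.7% of all genes), PWK 5 (31.7%) and the interaction 3 (5.54%). On log2(TPM + 1) CAST had 21 (55.6% of all genes), sexes 0 (0.704%, 5 members unadjusted) and the interaction 19 (52.9%). Co-variation on that scale was 0.219 in ERAD, 0.789 in oxidative folding and 0.281 for Sec61b with Txnip. Leaving out each NZO or PWK library gave 3 to 8 members in NZO (3 without the male library, replicate 4), 6 to 9 in PWK, 34 to 37 for strain and 4 for sexes.

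Single members changed direction in 15 cases. On log2(TPM + 1) these were Pdia6 (0.0883) and Derl1 (0.0753) in 129, Canx in B6 (-0.00146), Syvn1 (-0.0119) and Hyou1 (-0.00232) in CAST and Pdia3 in WSB (-0.0219). With the acinar covariate they were Derl3 (0.335), Sel1l (0.464), Asns (0.183), Edem1 (0.167) and Edem2 (0.0979) in AJ, and with the leukocyte covariate Derl1 (0.0812) and Hyou1 (0.00725) in NOD. Hspa5 in NOD was -0.184 below 100000 acinar TPM, and Creld2 in NZO lay between -0.023 (without replicate 4) and 0.495 when 1 NZO library was left out. No paired analysis was possible because the library numbers within a strain do not pair libraries across strains or sexes.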
